A study of Mus musculus with 8 samples.

Results

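The blood vessels of the hippocampus were followed through 30 marker genes among the 19558 genes measured. They were chosen by name as an endothelial set of 17 and a mural set of 13, the mural set being 6 pericyte and 7 smooth muscle genes. All 30 had enough counts to be tested, among 15481 genes tested in all. The samples were poly(A)-selected RNA-seq libraries of hippocampus from wild-type mice of the strain labelled C57BL/6 KP at postnatal day 40. Under anesthesia, 4 mice received KU55933, a small-molecule blocker of the DNA damage kinase ATM, through the nose at 7.5 mg/kg, and 4 received the vehicle, 4% DMSO in saline. Both groups were thus wild type, anesthetized and exposed to the same route. The DMSO samples carry the same 7.5 mg/kg in their labels. Neither the interval between dosing and collection nor the sex of the mice was found in the sources. The design is a direct comparison of the 2 groups, and here it asks how the vascular mRNAs of the hippocampus differed after KU55933.

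Endothelial cells line brain vessels and form the blood-brain barrier, with claudin-5 strands sealing the junctions between them and transporters moving nutrients in and drugs out. Pericytes sit on capillaries within the same basement membrane and depend on PDGF-B from the endothelium, which they sense through its receptor PDGFRB. Smooth muscle cells wrap arteries and arterioles and hold the contractile proteins that set vessel width.

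Library totals were 40586998 to 46630341 estimated counts in vehicle and 34190440 to 37499003 in KU55933. Markers of hippocampal neurons summed to 1054 to 1370 CPM per library (CPM being counts scaled by effective library size), and Prox1, the granule neuron factor, lay between 138 and 216 CPM. The protocol text also names RNA amounts for hypothalamus and prefrontal cortex, and the tissue label was taken as given. KU55933 1 and 2 exceeded the other 6 libraries in 12 of 12 choroid plexus markers, whose summed level was 1937 and 1811 CPM there against 172 to 339 elsewhere. Vehicle 3 stood apart in smooth muscle genes, as described with them. Between the groups the counts also followed base composition. The slope of log2 level on GC content was 0.13 to 0.27 per 10 percentage points in the 4 vehicle libraries and -0.34 to -0.11 in the 4 KU55933 libraries. That slope and the treatment therefore cannot be told apart, and the genes that passed the test were also compared with an offset, fitted per library, that takes out the dependence on GC and length. The counts of each set are given both ways.

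Without the offset, 6 of the 30 vascular genes fell in KU55933 and 1 rose, where 14.6% of all tested genes fell and 6.92% rose (edgeR quasi-likelihood F test, Benjamini-Hochberg adjusted p under 0.05). The fallen genes were the endothelial genes Cldn5, Eng, Tie1 and Pltp, the pericyte receptor gene Pdgfrb and the muscle filament gene Des. Ly6c1, which encodes a surface protein of brain endothelium, rose. The other 23 genes, among them Pecam1, Cdh5, Kdr, Flt1, Tek, Vtn, Rgs5 and Acta2, did not pass the test. With the offset, 0 of 30 passed, where 1.3% of all genes fell and 0.691% rose, and 6 of the 30 had an unadjusted p under 0.05.

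The genes that fell had a transcript GC content of 55.1% (Pdgfrb) or more, and most of the others lay below that. The division was not complete, because Vtn (55.3%), Myl9 (56.6%) and Tpm2 (56.8%) did not pass. Stretches of coding sequence from 4 endothelial genes illustrate the contrast. Cldn5 and Tie1 fell, while Tek, the receptor partner of Tie1, and Slco1a4, an organic anion transporter of the barrier, did not pass. Cldn5 had the highest transcript GC content of the vascular genes (60.5%) and Slco1a4 the lowest (40.4%). These stretches therefore include both ends of the range and do not show a typical difference. Each line holds the middle 90 bases of the coding sequence of the gene's most abundant coding transcript in these libraries, 5′ to 3′, from GENCODE mouse release 21, with G and C in capitals.
Cldn5: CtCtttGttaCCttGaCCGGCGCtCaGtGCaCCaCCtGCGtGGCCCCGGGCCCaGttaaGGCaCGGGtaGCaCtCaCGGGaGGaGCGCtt
Tie1: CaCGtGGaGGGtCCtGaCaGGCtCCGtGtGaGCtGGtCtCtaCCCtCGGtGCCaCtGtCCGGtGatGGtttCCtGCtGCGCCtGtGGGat
Tek: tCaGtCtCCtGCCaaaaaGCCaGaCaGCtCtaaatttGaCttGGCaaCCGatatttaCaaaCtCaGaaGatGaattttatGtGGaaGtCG
Slco1a4: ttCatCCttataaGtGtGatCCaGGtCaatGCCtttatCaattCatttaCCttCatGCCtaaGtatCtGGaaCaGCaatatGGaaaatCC
G and C made up 58 of the 90 bases in Cldn5 (coding bases 283 to 372) and 57 in Tie1 (1657 to 1746), against 36 in Tek (1640 to 1729) and 33 in Slco1a4 (961 to 1050). Over the whole coding sequence the GC content was 64.1% in Cldn5, 58.3% in Tie1, 48.8% in Tek and 42.4% in Slco1a4. The Cldn5 coding sequence lies in 1 exon, and those of Tie1 and Tek are each spread over 23.

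Cldn5, which encodes the main tight junction protein of brain endothelium, had 33.2, 39.8, 46.8 and 37.2 CPM in the 4 vehicle libraries. In KU55933 it had 23.3, 16.5, 20.1 and 22.3 CPM. The groups did not overlap, and the lowest vehicle library lay above the highest KU55933 library. Cldn5 fell 1.91-fold, from 39.2 ± 5.72 to 20.6 ± 3.05 CPM (mean ± SD, n = 4 per group), by -0.93 ± 0.13 on the log2 scale (± SE; adjusted p = 0.00108, edgeR). With the offset the difference was -0.16 ± 0.10 (adjusted p = 0.481). In bulk tissue, fewer endothelial cells, less RNA per cell and the GC trend between the groups cannot be told apart.

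Of the junction and adhesion genes measured beside it, none passed. Cdh5, the VE-cadherin of adherens junctions, had 15.2 to 18.0 CPM in vehicle and 12.7 to 17.2 in KU55933, a log2 difference of -0.17. Pecam1, the platelet and endothelial adhesion molecule, had 19.4 to 22.6 and 20.7 to 26.3 CPM (0.12). Esam, an immunoglobulin-family adhesion molecule of endothelial junctions, had 15.5 to 19.2 and 12.8 to 15.5 CPM (-0.19), and the sialomucin gene Emcn had 4.89 to 5.39 and 4.92 to 7.05 CPM (0.24). The differences thus lay on both sides of 0 among genes that mark the same cells as Cldn5. In the fixed list of 14 junction genes, which holds Cldn5, Cdh5, Pecam1 and Esam, 1 fell, namely Cldn5, and 0 rose (14.6% and 6.92% of all genes), with a median log2 difference of 0.14 against 0.01 over all genes tested.

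Tie1, the co-receptor that modulates angiopoietin signalling, had 14.2, 15.0, 15.9 and 13.8 CPM in vehicle and 8.54, 7.36, 10.4 and 10.9 CPM in KU55933. The groups did not overlap. It fell 1.58-fold, from 14.7 ± 0.908 to 9.30 ± 1.65 CPM (mean ± SD, n = 4), by -0.66 ± 0.13 on the log2 scale (adjusted p = 0.0058, edgeR), and with the offset the difference was -0.21 ± 0.09 (adjusted p = 0.31). Tek, which encodes the angiopoietin receptor TIE2, had 17.1 ± 0.617 CPM in vehicle and 17.8 ± 1.51 in KU55933 (log2 0.06 ± 0.09, adjusted p = 0.641). The difference between the changes of Tie1 and Tek was not tested. Of the 5 angiopoietin-Tie genes tested, Tie1 was the 1 that fell and 0 rose, beside 14.6% and 6.92% of all genes.

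The 2 main VEGF receptor genes of endothelium did not pass. Kdr (VEGFR2) had 22.8 ± 2.57 CPM in vehicle and 22.0 ± 3.07 in KU55933, and Flt1 (VEGFR1) had 77.8 ± 8.56 and 82.4 ± 10.2 CPM (mean ± SD, n = 4). Their log2 differences were -0.05 and 0.08. Among 10 VEGF ligands and receptors 1 fell and 0 rose, beside 14.6% and 6.92% of all genes. The 1 was Vegfb, a ligand of FLT1, which fell from 33.4 ± 3.60 to 21.2 ± 2.80 CPM (log2 -0.65, adjusted p = 0.00287 by edgeR). Vegfb has a GC content of 62.2%, and with the offset its difference was 0.33, the opposite sign.

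Eng encodes endoglin, a co-receptor of endothelium for BMP and TGF-beta ligands. It had 24.1, 26.3, 28.8 and 23.9 CPM in vehicle and 16.8, 13.7, 18.9 and 15.2 CPM in KU55933, with no overlap. It fell 1.60-fold, from 25.8 ± 2.27 to 16.1 ± 2.21 CPM (mean ± SD, n = 4), by -0.67 ± 0.11 on the log2 scale (adjusted p = 0.00237, edgeR), and with the offset the difference was -0.21 ± 0.10 (adjusted p = 0.331). Among its transcripts the estimates differed. ENSMUST00000009705 fell from 13.2 ± 0.910 to 5.30 ± 2.04 CPM (log2 -1.35 ± 0.28, adjusted p = 0.0241 over all transcripts, edgeR), a call lost without vehicle 2, 3 or 4 or KU55933 2 or 3 (adjusted p up to 0.0831). ENSMUST00000113272 had 6.50 ± 0.591 and 6.71 ± 2.17 CPM (log2 0.01, adjusted p = 0.985). ENSMUST00000167841 had 5.86 ± 1.99 and 4.05 ± 1.38 CPM (log2 -0.56, adjusted p = 0.406, edgeR). Their differences with the offset were, in the order given, -0.64, 0.91 and 0.05, and none passed. Reads shared by the transcripts of a gene are divided between them by the estimation, and differences between these transcripts were not tested.

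Id3, a target gene of BMP signalling that encodes an inhibitor of DNA binding, had 25.5, 26.4, 36.2 and 34.5 CPM in vehicle and 12.5, 10.9, 14.7 and 18.3 CPM in KU55933. The groups did not overlap. Id3 fell 2.17-fold, from 30.6 ± 5.50 to 14.1 ± 3.21 CPM, by -1.12 ± 0.17 on the log2 scale (adjusted p = 0.00202, edgeR). With the offset it still fell, by -0.84 ± 0.13 (adjusted p = 0.0104), the 1 gene of all 9 pathway lists to pass there, where 1.3% of all genes fell. That call held in each of the 8 fits with the offset that left out a library (highest adjusted p 0.0461), and ended without KU55933 1 and 2 together (log2 -0.70, adjusted p = 0.131). Neurons and astrocytes can also express Id3, and its source was not measured.

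In the endoglin and BMP-TGF-beta list 6 of 13 genes fell and 0 rose, with a median log2 difference of -0.36, where 14.6% of all genes fell and 6.92% rose. The list's median GC content was 55.2%. Of all genes at 55.1% to 60.5% GC 47.0% fell, and of those below that range 2.86% fell. The range starts near the list's median, so the 47.0% does not match the list. Beside Id3 and Eng the fallen genes of the list were Id1, another inhibitor of DNA binding, the ligand gene Tgfb1, the receptor gene Acvrl1 (ALK1), and the inhibitory SMAD gene Smad6. Id1 fell from 7.97 ± 1.58 to 4.39 ± 0.579 CPM (log2 -0.86 ± 0.16, adjusted p = 0.0049, edgeR; offset -0.62). Tgfb1 fell from 3.92 ± 0.759 to 1.89 ± 0.398 CPM (log2 -1.05; offset -0.09). Acvrl1 fell to 8.89 ± 1.05 CPM in KU55933 (log2 -0.43, adjusted p = 0.0206, edgeR; offset -0.11) and lost its call without vehicle 3 or vehicle 4 (up to 0.0726). Smad6 lost its call there too (up to 0.0773). The other receptor genes and Smad1, Smad5, Smad7 and Smad9 did not pass.

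**Figure D1:**
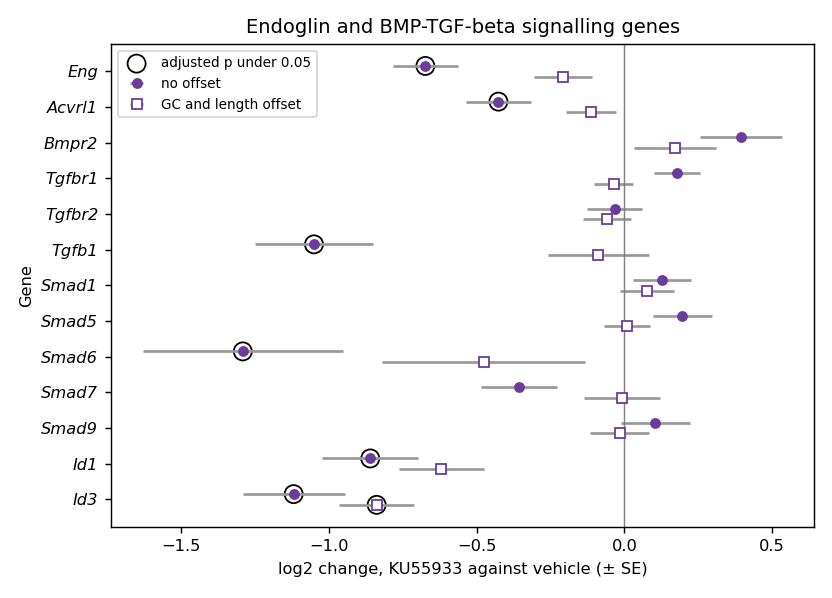
Log2 difference of KU55933 from vehicle (± SE, horizontal axis) for the 13 genes of the endoglin and BMP-TGF-beta list, without the offset (filled points) and with it (open squares), with rings where the adjusted p was under 0.05. Of the 6 genes ringed without the offset, Id3 is ringed with it, at -0.84.

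Pltp encodes the phospholipid transfer protein, which moves lipids between lipoproteins. It had 63.9, 63.4, 73.1 and 61.2 CPM in vehicle and 51.8, 42.2, 44.5 and 47.4 CPM in KU55933, again with no overlap. It fell 1.41-fold, from 65.4 ± 5.25 to 46.5 ± 4.14 CPM (log2 -0.49 ± 0.09, adjusted p = 0.00327, edgeR), and with the offset the difference was -0.02 (adjusted p = 0.942). Its main transcript ENSMUST00000059954, which holds most of the gene's counts, fell from 63.6 ± 4.67 to 44.7 ± 4.01 CPM (adjusted p = 0.0138 over all transcripts, edgeR). That call ended without vehicle 3 (0.0508) or KU55933 2 (0.132).

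The transporter genes of the barrier among the 17 did not pass. Slc2a1, the glucose transporter GLUT1, had 76.5 ± 10.9 CPM in vehicle and 66.3 ± 12.8 in KU55933 (log2 -0.21, adjusted p = 0.327 by edgeR). Slco1a4 had 52.7 ± 3.42 and 53.9 ± 4.94 CPM, and Abcb1a, the drug efflux pump P-glycoprotein, had 34.0 ± 3.04 and 35.5 ± 4.55 CPM. These 3 log2 differences ran from -0.21 to 0.06. The related gene Abcb1b was measured at 4.87 CPM in vehicle, and how reads were divided between the pair was not tested. In the list of 16 barrier transporters 0 fell and 1 rose, where 14.6% of all genes fell and 6.92% rose. That gene was Slco1c1, a thyroid hormone transporter of brain endothelium and astrocytes, with 60.8 ± 6.61 CPM in vehicle and 79.3 ± 8.34 in KU55933 (log2 0.38, adjusted p = 0.0206, edgeR). Its call was lost without vehicle 3 or vehicle 4 (up to 0.0728) and with the offset, where the difference was 0.20.

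Ly6c1 had 28.5, 23.8, 24.0 and 25.0 CPM in vehicle and 32.6, 26.7, 37.3 and 36.9 CPM in KU55933. The groups overlapped, because KU55933 2 lay below vehicle 1. It rose 1.32-fold, from 25.3 ± 2.21 to 33.4 ± 4.92 CPM (log2 0.40 ± 0.11, adjusted p = 0.0317, edgeR). With the offset the difference was of similar size, 0.36 ± 0.10, and did not pass (adjusted p = 0.124). Leaving out vehicle 2, 3 or 4 or KU55933 1, 3 or 4 also ended the call, with adjusted p from 0.0552 to 0.0942.

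Ly6a (SCA-1), of the same gene family, had 18.6, 17.3, 14.7 and 16.0 CPM in vehicle and 23.3, 15.9, 23.3 and 23.4 CPM in KU55933. In 3 of the 4 KU55933 libraries it lay above all of vehicle, and in KU55933 2 it lay inside the vehicle range. It did not pass (log2 0.37 ± 0.13, adjusted p = 0.0693, edgeR), but passed without KU55933 2 (adjusted p = 0.0134), without vehicle 1 (0.046), without KU55933 1 and 2 together (0.0356) and with DESeq2 (0.0384). The family relative Ly6c2 was measured at 0.319 CPM in vehicle. Itm2a, a membrane protein gene of endothelium, had 50.6 ± 1.79 and 54.2 ± 5.96 CPM (log2 0.10) and did not pass.

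Among the 6 pericyte genes, Pdgfrb, the receptor for PDGF-B, was the 1 that fell. It had 34.5, 36.9, 38.3 and 37.1 CPM in vehicle and 26.9, 23.8, 31.5 and 23.9 CPM in KU55933. The groups did not overlap, and vehicle varied less than KU55933. Pdgfrb fell 1.38-fold, from 36.7 ± 1.59 to 26.5 ± 3.62 CPM (log2 -0.47 ± 0.10, adjusted p = 0.00849, edgeR). With the offset the difference was -0.28 ± 0.09 (adjusted p = 0.146), and without KU55933 1 and 2 together the call ended (adjusted p = 0.0861). Fibroblasts of the vessel wall and meninges express Pdgfrb too.

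The other pericyte genes did not pass. Vtn, which encodes the matrix protein vitronectin, had 71.4 ± 8.45 CPM in vehicle and 64.9 ± 9.97 in KU55933 (log2 -0.14). Rgs5, a regulator of G-protein signalling, had 119 ± 10.5 and 139 ± 18.8 CPM (log2 0.22, adjusted p = 0.139, edgeR). Kcnj8 and Abcc9, which encode the pore and the regulatory subunit of an ATP-sensitive potassium channel, differed by -0.21 and 0.17. Within the 6 pericyte genes the differences therefore ran in both directions, with a median of 0.02.

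Higd1b, a pericyte marker that encodes a small membrane protein of the HIG1 domain family, was low in all libraries. It had 2.17, 2.05, 1.60 and 1.76 CPM in vehicle and 2.31, 2.37, 2.53 and 2.51 CPM in KU55933. All 4 KU55933 libraries lay above vehicle, yet the test was not passed (log2 0.36 ± 0.16, adjusted p = 0.125, edgeR). It was the 1 vascular gene of 30 that lay higher without overlap, where 10.7% of all genes did, and the 6 fallen genes were those that lay lower without overlap, where 15.9% of all genes did.

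The list on PDGF-B and recruitment of mural cells had 6 of 12 genes lower and 0 higher, with a median log2 difference of -0.40, where 14.6% of all genes fell. Its median GC content was 55.2%. All genes at 54.0% to 55.8% GC had a median log2 difference of -0.19. Those at 55.1% to 60.5% GC had -0.40, with 47.0% lower. The latter range starts near the list's median, so it does not match the list. Pdgfb, the endothelial ligand of PDGFRB, fell from 26.1 ± 1.16 to 17.4 ± 1.67 CPM (log2 -0.58, adjusted p = 0.0016 by edgeR; offset 0.09). Notch1 fell from 44.2 ± 1.65 to 27.1 ± 4.81 CPM (log2 -0.70; offset -0.36), and Notch3, the Notch receptor of mural cells, fell from 17.3 ± 1.97 to 10.4 ± 1.80 CPM (log2 -0.74; offset -0.13). Notch4, an endothelial Notch receptor, fell from 7.80 ± 1.06 to 4.96 ± 1.20 CPM (adjusted p = 0.0271, edgeR), a call lost in 4 of the 8 fits that left out a library (up to 0.0695 without vehicle 3, vehicle 4, KU55933 1 or KU55933 2). The other 2 fallen genes were Pdgfrb itself and the Notch target gene Heyl, whose call was lost in 5 of those 8 fits (up to 0.104). With the offset 0 of 12 passed. Neurons also express Pdgfb and Notch1, so these levels are not those of vessels alone.

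Smooth muscle genes varied most among vehicle animals. Acta2, the smooth muscle actin, had 19.4, 17.5, 40.9 and 15.2 CPM in vehicle and 22.1, 24.4, 20.1 and 16.4 CPM in KU55933. Myh11, the smooth muscle myosin heavy chain, had 16.9, 14.1, 32.7 and 13.6 CPM and then 16.9, 20.0, 14.8 and 11.4 CPM. In both genes vehicle 3 was the highest of 8 libraries and the others overlapped between groups. All 7 smooth muscle genes were highest in vehicle 3, at 1.63 to 4.10 times the mean of the other vehicle libraries (median 2.30). The same held for 4 of 17 endothelial genes (ratios 0.847 to 1.27) and 2 of 6 pericyte genes (0.804 to 1.20). Vehicle 3 was also highest in 8 of 11 fibroblast and meningeal markers, whose summed level was 325 CPM there, 152 to 246 in the other vehicle libraries and 205 to 321 in KU55933. It was highest in 5 of 9 further smooth muscle markers. Whether the 2 marker groups share a source in that library was not tested.

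Des, which encodes desmin, an intermediate filament protein of muscle cells and pericytes, had 2.08, 1.90, 3.65 and 2.70 CPM in vehicle. In KU55933 it had 1.78, 1.35, 1.52 and 1.41 CPM. The groups did not overlap, and vehicle 3 was again the highest library. Des fell 1.70-fold, from 2.58 ± 0.786 to 1.52 ± 0.192 CPM (log2 -0.77 ± 0.23, adjusted p = 0.0352, edgeR), and with the offset the difference was -0.45 (adjusted p = 0.353). Without vehicle 3 the log2 difference was -0.56 (adjusted p = 0.11), and the call also ended without vehicle 4 or KU55933 2, 3 or 4 (adjusted p 0.059 to 0.0897). Of the 6 falls, that of Des was the 1 lost when a single library was left out.

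The remaining smooth muscle genes had negative log2 differences over all 8 libraries and none passed. Acta2 (-0.16), Tagln (-0.16), Cnn1 (-0.20) and Myh11 (-0.29) encode contractile or actin-binding proteins, as do Myl9 (-0.34) and Tpm2 (-0.45). The median of the 7 was -0.29, and -0.07 with the offset. Without vehicle 3 the difference turned positive in Acta2 (0.26), Tagln (0.28), Myh11 (0.09) and Cnn1 (0.63), and without KU55933 4 in Cnn1 (0.12). Myl9, the regulatory myosin light chain, had 17.0 ± 4.94 CPM in vehicle and 13.4 ± 1.67 in KU55933. Cnn1, calponin, was measured by only 15 to 70 counts per vehicle library and 6 to 41 per KU55933 library, so its interval is wide.

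Smooth muscle genes are known targets of serum response factor (SRF), which binds the CArG box. In the list of 18 tested contractile genes, 4 fell and 0 rose, namely Des, Srf itself, its co-activator gene Mrtfa, and Smtn, which encodes smoothelin. Over all genes 14.6% fell and 6.92% rose. Srf fell from 34.9 ± 2.41 to 19.2 ± 4.00 CPM (log2 -0.86, adjusted p = 0.00208 by edgeR). With the offset the Srf difference was 0.28, the opposite sign. Mrtfa fell from 82.8 ± 6.90 to 55.0 ± 5.17 CPM (log2 -0.59; offset -0.13), and Smtn lost its call without vehicle 3 (adjusted p = 0.0594, edgeR). Srf and Mrtfa are expressed in neurons as well.

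Promoter windows of 250 bases before the RefSeq start (GRCm38.p6) were at hand for 5 of the 7 smooth muscle genes, and 1 held a strict CArG box on either strand, that of Myl9. It is shown because SRF is among the genes that fell, 5′ to 3′ on the plus strand at chr2:156775214-156775463, with the box in capitals.
Myl9 promoter: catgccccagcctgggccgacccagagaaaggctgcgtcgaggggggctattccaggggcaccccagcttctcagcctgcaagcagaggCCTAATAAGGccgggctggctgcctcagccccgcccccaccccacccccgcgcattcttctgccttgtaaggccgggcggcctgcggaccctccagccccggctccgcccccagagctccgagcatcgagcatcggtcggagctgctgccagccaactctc
The box starts 161 bases before the start of the gene. Of all 32851 windows, 482 (1.47%) held such a box, and 0 of 14 endothelial and 0 of 4 pericyte windows did. A match to these letters is a description and shows no binding.

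**Figure D2:**
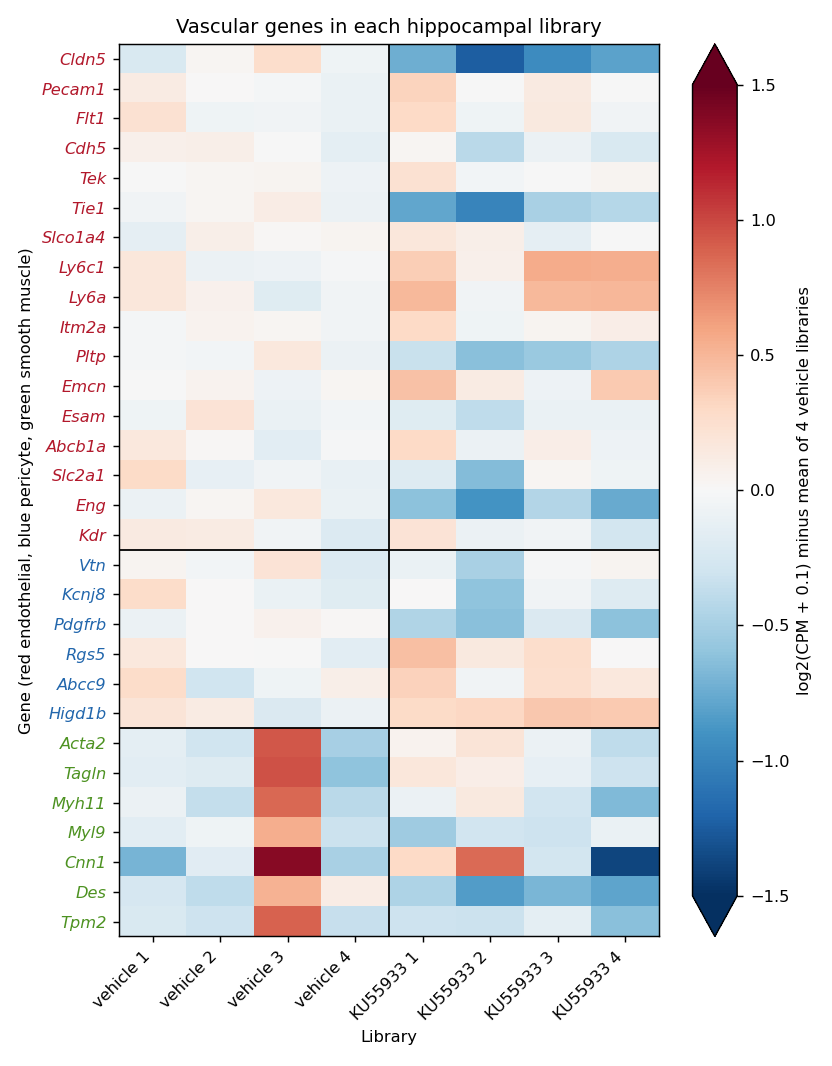
Level of each of the 30 vascular genes (rows) in each of the 8 libraries (columns), as log2(CPM + 0.1) minus the gene's mean over the 4 vehicle libraries. The smooth muscle rows are highest in vehicle 3, and the rows of Cldn5, Eng, Tie1, Pltp and Pdgfrb are higher in the 4 vehicle libraries than in the 4 KU55933 libraries.

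The sets were then compared as wholes. The summed endothelial level was 604, 577, 583 and 548 CPM in vehicle and 593, 471, 552 and 536 CPM in KU55933. The pericyte sum was 258, 239, 253 and 220 CPM in vehicle and 275, 220, 262 and 232 CPM in KU55933. The smooth muscle sum was 132 CPM in vehicle 3, 55.5 to 66.6 in the other vehicle libraries and 55.9 to 75.0 in KU55933. For all 3 sums the groups overlapped, and KU55933 2 had the lowest endothelial sum of the 8 libraries.

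The mean log2 CPM of the 17 endothelial genes exceeded that of the 13 mural genes by 1.55, 1.62, 0.97 and 1.61 in vehicle. In KU55933 the excess was 1.48, 1.24, 1.46 and 1.70. The group means, 1.44 ± 0.312 and 1.47 ± 0.189 (SD, n = 4), differed by 0.03, less than the spread between libraries. The sign of this small difference was not stable, and without vehicle 3 it was -0.13. Vehicle 3 had the smallest excess, the library in which the smooth muscle genes were high.

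**Figure D3:**
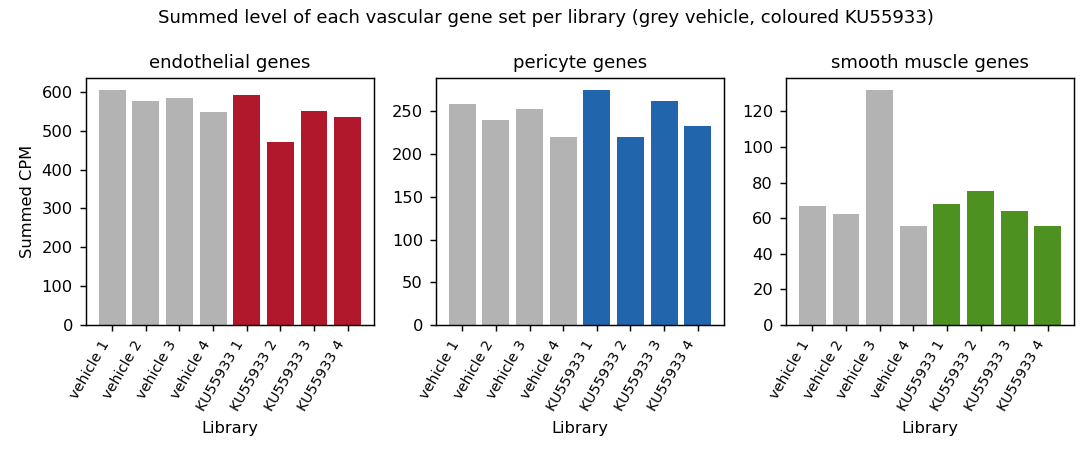
Summed CPM (vertical axis, from 0) of the endothelial, pericyte and smooth muscle genes in each of the 8 libraries (bars, grey for vehicle and coloured for KU55933). The groups overlap in each set, and vehicle 3 has the tallest smooth muscle bar, at 132 CPM.

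Per length, in TPM computed from the counts and the annotated lengths, the order in vehicle began with Vtn at 101 TPM, followed by Pltp (88.4), Ly6c1 (76.9), Rgs5 (70.0), Itm2a (69.6), Cldn5 (66.5) and Slc2a1 (65.2). Rgs5, Itm2a, Cldn5 and Slc2a1 lay within their spread of one another, with SDs of 2.55 to 10.1 TPM. The lowest were Cnn1 (1.05 TPM), Des (2.18), Kcnj8 (3.04) and Abcc9 (3.35). The other 19 genes lay between 6.68 and 48.6 TPM. In KU55933 Cldn5 averaged 35.3 TPM.

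The 4 endothelial genes that fell were the 4 of highest GC content among the 17, at 57.8% to 60.5%. The lowest GC content among the 6 fallen genes was 55.1%, in Pdgfrb, and taking it as the limit fixes that no fall lies below. Of the 9 vascular genes at or above it 6 fell, and Vtn, Myl9 and Tpm2 did not pass. Over all tested genes in the range the fallen genes span, 55.1% to 60.5% GC, 47.0% of 3243 fell and 0.154% rose, with a median log2 difference of -0.40. Below that range 2.86% of 11746 fell and 9.08% rose, with a median of 0.10.

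**Figure D4:**
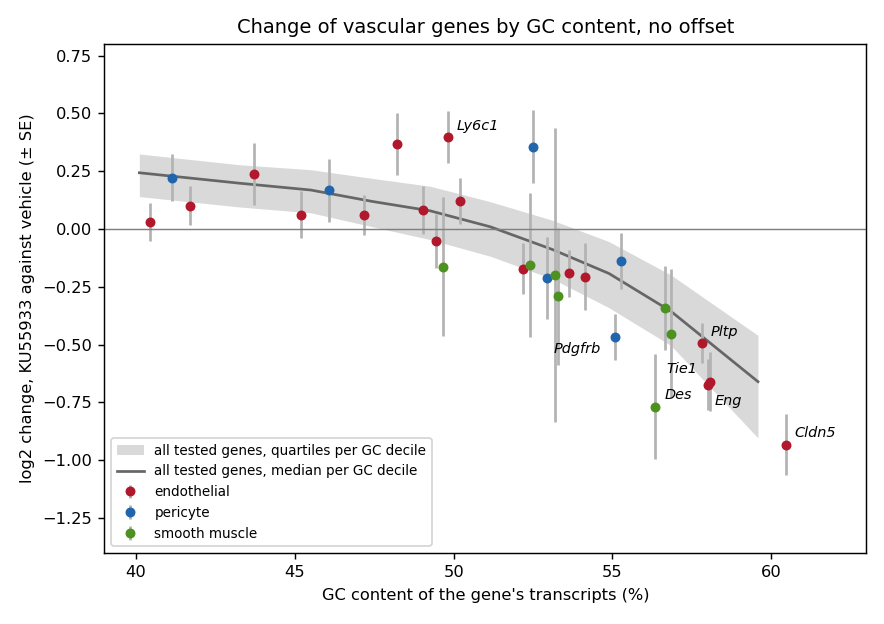
Log2 difference of KU55933 from vehicle without the offset (± SE) against GC content for the 30 vascular genes, over the median and quartiles of all tested genes in each GC decile. The 6 fallen genes lie at 55.1% to 60.5% GC, and Ly6c1, the gene that rose, lies at 49.8%.

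With the offset the endothelial median moved from 0.03 to -0.07, the pericyte median from 0.02 to 0.01 and the smooth muscle median from -0.29 to -0.07. The unadjusted p stayed under 0.05 for Tie1, Slco1a4, Ly6c1, Ly6a, Pdgfrb and Higd1b, and for none of these did the adjusted p pass. Of the fallen genes, Pdgfrb had -0.28 in place of -0.47 and Des -0.45 in place of -0.77, while Cldn5 had -0.16 in place of -0.93 and Pltp -0.02 in place of -0.49. By transcript, 64 of the 102 listed transcripts of these genes were tested. Of these 4 fell, where 5.7% of all tested transcripts fell, and 0 rose, where 1.06% rose (edgeR, adjusted p under 0.05). They belonged to Cldn5, Eng, Pltp and Pdgfrb, and with the offset 0 passed, where 1.01% of all transcripts fell and 1.05% rose. The Pdgfrb transcript lost its call in 7 of the 8 fits that left out a library (adjusted p up to 0.216), and that of Cldn5 kept it in all 8. For Cldn5 and Pdgfrb the tested transcript holds the same counts as the gene, so it is no separate observation.

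Without KU55933 1 and 2, the libraries high in choroid plexus markers, the same 4 endothelial genes fell and Ly6c1 and Ly6a rose, where 6.24% of all genes fell and 0.665% rose. Pdgfrb and Des did not pass there, and 0 mural genes were called. With DESeq2 on all libraries Ly6c1 and Ly6a both rose, where 11.9% of all genes did.

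**Figure D5:**
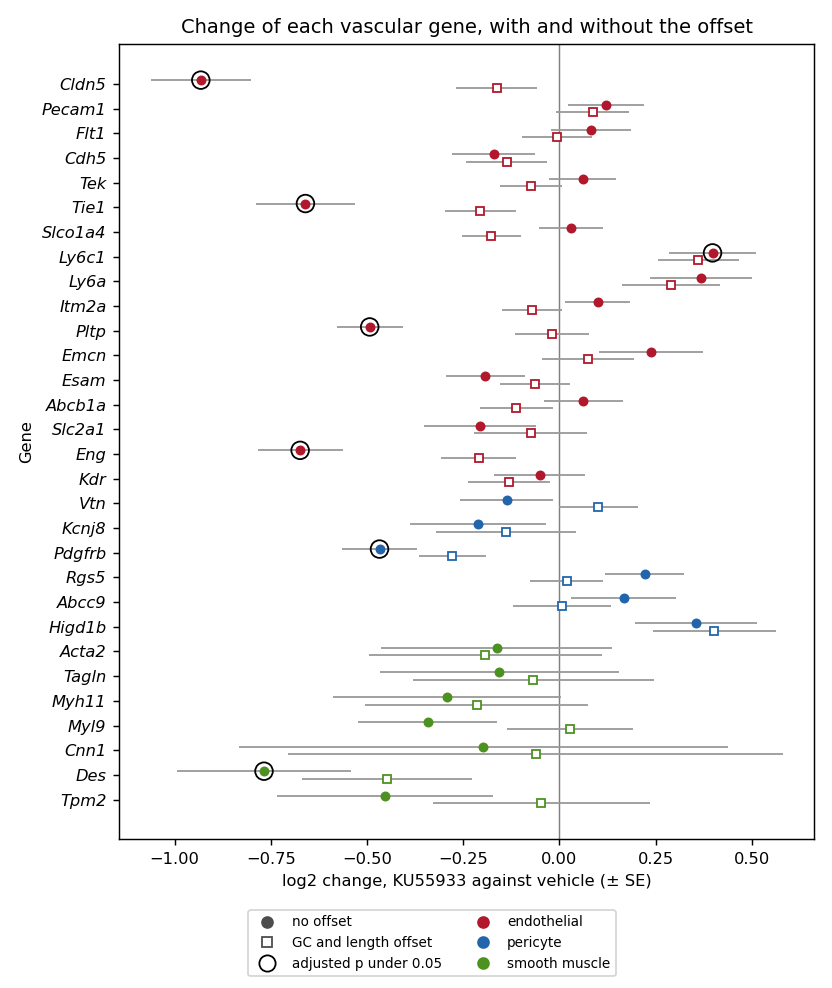
Log2 difference of KU55933 from vehicle (± SE) for each of the 30 vascular genes, without the offset (filled points) and with the offset for GC content and length (open squares). The 7 ringed genes had an adjusted p under 0.05 without the offset, and 0 are ringed with it.

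The 2 remaining lists on endothelial state were those for Wnt signalling to the barrier and for activation and leakage. In the Wnt list 4 of 16 genes fell and 0 rose, where 14.6% of all genes fell and 6.92% rose. Wnt7b, a ligand that neural cells give to brain endothelium, fell from 49.0 ± 3.14 to 36.6 ± 3.32 CPM (log2 -0.42, adjusted p = 0.00667 by edgeR; offset 0.15). Axin2, a general target of the pathway, fell from 27.3 ± 3.29 to 19.3 ± 1.58 CPM (log2 -0.50; offset -0.33). The co-receptor gene Lrp5 fell from 12.7 ± 1.57 to 8.92 ± 0.998 CPM (log2 -0.51; offset -0.02). Sox18, an endothelial transcription factor gene, fell from 5.74 ± 1.65 to 3.07 ± 0.378 CPM (log2 -0.90; offset -0.07). None of the 16 genes passed with the offset. The Sox18 call was lost without vehicle 3 (adjusted p = 0.051, edgeR).

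Among 11 tested genes of endothelial activation and leakage 3 fell and 0 rose, beside 14.6% and 6.92% of all genes. The log2 differences of the 11 ran from -0.82 to 2.10, with a median of 0.01. Plvap, which forms the diaphragms of leaky endothelium and marks vessels without a barrier, fell from 4.59 ± 0.781 to 2.59 ± 0.368 CPM (log2 -0.82, adjusted p = 0.00677 by edgeR; offset -0.03). Nos3, the endothelial nitric oxide synthase, fell from 11.7 ± 1.80 to 7.34 ± 1.12 CPM (log2 -0.67; offset -0.20). Vwf, the von Willebrand factor, fell from 23.5 ± 3.05 to 16.3 ± 2.77 CPM and lost its call without vehicle 3 or KU55933 2 (adjusted p up to 0.0697, edgeR). The 3 genes have GC contents of 56.4% to 60.6%, and none passed with the offset. Without KU55933 1 and 2 together, the calls of Notch4, Heyl, Acvrl1, Smad6, Sox18, Lrp5, Slco1c1, Nos3, Vwf and Smtn ended, with adjusted p from 0.0617 to 0.218 (edgeR).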

How the data were processed

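Each of the 8 samples is 1 stranded poly(A) RNA-seq library, counted per the labels as 1 mouse each. P-values measure the spread between these samples. The authors deposited 1 table of estimated counts (expected counts) for transcripts, whole numbers, not normalized, named as Salmon counts. Per the submitters' processing notes, the build was GRCm39 and the tools included Salmon 1.4.0, DESeq2 1.32.0 and FastQC 0.11.9, with no role stated. Counts of 74764 transcripts were summed per gene. 12 transcripts without a symbol were not among the genes named.

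Genes kept by filterByExpr were scaled by TMM and tested with edgeR 4.0.16 (quasi-likelihood F test, two-sided, robust dispersion, R 4.3.3), with Benjamini-Hochberg adjustment over all genes and a threshold of 0.05. The SE is the log2 difference divided by the square root of F. The offset came from natural splines per library on GC content (6 degrees of freedom) and log2 length (5). GC content, length and coding stretches came from GENCODE mouse release 21, which matched 99.7% of transcripts and 99.82% of counts. Its build differs from the authors', so no coordinate was taken from it. Promoters came from RefSeq.

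The 30 genes, 9 pathway lists and 12 marker lists were chosen with earlier results of these data known. Vascular genes called or not overlapping between groups were given in full. Ly6a, Acta2, Myh11, Cspg4 and Lyve1 were also given in full, chosen after their values were seen. Up to 4 called genes were named per pathway list, by smallest p, and Smad6 and Heyl were named after their values were seen. Alternatives were RLE scaling, 2 other filters, DESeq2 1.42.0, limma-voom (limma 3.58.1), the offset, the replicate number as a block, a threshold of 0.1, a prior count of 0.5 in place of 2, a median in place of a mean, each library left out, and KU55933 1 and 2 left out. The last was also run with the offset, chosen after the data were seen. The tests were tried on simulated counts, and no pair of libraries was a duplicate.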

Additional observations from a re-analysis of the deposited data

Results flagged for a closer look

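Of 60 groups of 4 libraries examined (30 genes in 2 treatment groups), 6 held a library far from the other 3 by Dixon's criterion, which chance meets in about 1 group in 20. Vehicle 3 was the far library for the smooth muscle genes Acta2 (40.9 CPM), Cnn1 (1.70 CPM) and Tpm2 (10.4 CPM), each time the highest. Vehicle 1 was the highest for the VEGF receptor gene Flt1 (90.5 CPM) and the glucose transporter gene Slc2a1 (92.7 CPM). KU55933 2 was the lowest of its group for Ly6a (15.9 CPM).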

How the results depend on the processing

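The 4 falls and 1 rise among endothelial genes, the 2 falls among mural genes and the 4 falls among their transcripts all became 0 with the offset for GC content and length. They also became 0 for genes with the replicate block plus the offset and with the offset but without KU55933 1 and 2. The count of endothelial genes that rose was 2 with DESeq2, at an adjusted p of 0.1 and without KU55933 1 and 2. Fallen mural genes numbered 1 with limma-voom and 0 without KU55933 1 and 2. Leaving out each library in turn gave 0 to 2 endothelial rises, 1 to 2 mural falls, 1 to 4 fallen transcripts and 0 to 1 risen transcripts. With the offset as well it gave 0 endothelial falls, 0 to 1 rises and 0 mural falls. The Pltp difference with the offset turned to 0.0087 without vehicle 1, 0.0098 without vehicle 3, 0.028 without KU55933 3 and 0.032 without KU55933 4. With the replicate number as a block 1 mural gene rose, Rgs5 (log2 0.22, adjusted p = 0.0395, edgeR), where 11.1% of all genes did, and 4444 genes passed against 3338. Same-numbered libraries had correlated deviations of 0.039 to 0.29, against at most 0.11 between unlike numbers, and 5 of 8 correlated best with their own number. Whether libraries of the same number share a source was not tested. The main fit took no pairs, because the design is a direct comparison of the 2 groups. Endothelial minus mural levels stayed within 1 SD of the reported difference in all alternatives run. Among the main limits, 4 libraries per group, low counts in Cnn1, Des and Higd1b, and the GC trend that separates the groups bound what could be seen.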

Other observations

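Of 12 further endothelial markers 2 fell (Egfl7, Sox18) and 1 rose (Slco1c1), shares near the 14.6% of all genes that fell and the 6.92% that rose. Of 9 further pericyte markers 3 fell (Notch3, Cspg4, Ndufa4l2) and 1 rose (P2ry14), and of 8 further smooth muscle markers tested 0 fell or rose. The 9 pericyte markers summed to 89.2 to 109 CPM in vehicle and 68.3 to 85.8 CPM in KU55933, without overlap. Their median log2 difference was -0.30, and -0.13 with the offset. Cspg4, the NG2 proteoglycan of pericytes and oligodendrocyte precursors, had 31.2, 32.6, 31.7 and 27.7 CPM in vehicle and 17.3, 15.8, 24.1 and 21.9 CPM in KU55933 (log2 -0.64 ± 0.13, adjusted p = 0.00716, edgeR). With the offset none of these markers passed.

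Lyve1, a hyaluronan receptor of perivascular macrophages, had 0.943, 0.717, 0.656 and 0.719 CPM in vehicle and 1.67, 1.18, 1.65 and 1.33 CPM in KU55933, without overlap. It rose (log2 0.93 ± 0.22, adjusted p = 0.0137 by edgeR), and it did not pass with the offset (0.105) or without KU55933 1 and 2 together (0.0628). It was the 1 of 6 macrophage markers to pass. The 6 summed to 7.04 to 9.48 CPM in vehicle and 9.75 to 12.3 CPM in KU55933. The red blood cell markers summed to 307 to 548 CPM in vehicle and 200 to 359 CPM in KU55933, and of the 6 tested the globin gene Hba-a2 fell (adjusted p = 0.0324, edgeR), a call lost without vehicle 3 or 4 or KU55933 1, 2 or 4 (up to 0.0701). Of 11 fibroblast and meningeal markers Col1a1 fell, a call lost without KU55933 2 (adjusted p = 0.0529, edgeR). Of 12 choroid plexus markers Kcnj13 rose, carried by KU55933 1 and 2 (11.8 and 10.7 CPM). It had 1.22 and 0.761 CPM in KU55933 3 and 4 and 0.198 to 0.877 CPM in vehicle. Of 8 astrocyte markers Gfap, Sox9 and Fgfr3 fell, Sox9 also with the offset. Of 8 hippocampal neuron markers C1ql2, Wfs1 and Grik4 fell and Spink8 rose. No ependymal, microglial or oligodendrocyte marker passed, of 8 each. All these marker counts stand beside the same 14.6% lower and 6.92% higher over all genes.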
